A study of Mus musculus with 4 samples.

Results

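The genes examined here encode the vacuolar proton pump (V-ATPase), the ESCRT machinery and the vacuolar protein sorting (Vps) proteins of the endosome. A gene was a member if its symbol started with Atp6v, Atp6ap, Vps or Chmp, or if it was Tsg101, Hgs, Stam or Stam2, and if an array probe set was annotated to it alone. The rule used no measured value, though it was chosen with earlier results of these data known. It found 73 members among 19937 genes. Where a gene had several such probe sets the one of highest mean represented it, which concerned 6 members.

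Endosomes receive what the cell takes up and sort it either back to the surface or on to the lysosome. The V-ATPase acidifies these compartments with a rotary motor built from a cytosolic V1 sector, which splits ATP, and a membrane V0 sector, which carries protons. ESCRT complexes sort ubiquitinated receptors into vesicles that bud into the endosome, retromer and retriever bring other cargo back, and tethers such as HOPS and CORVET let membranes dock and fuse. In T cells this traffic sets how long the antigen receptor and cytokine receptors stay at the surface. IFITM proteins are themselves proteins of the plasma membrane and of endosomes, where they are known to hinder fusion of incoming viruses and have been found to associate with the V-ATPase.

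Total RNA from resting CD4 T cells of adult mice aged 6 to 8 weeks was measured on Affymetrix Mouse Gene 1.0 ST arrays, 2 from IfitmF-/- mice and 2 from wild-type (WT) mice. IfitmF-/- mice lack the whole Ifitm gene family in every cell and were bred on a C57BL/6 background. Cells were taken from spleen after lysis of red cells and enriched by negative selection, in which antibodies pull out the remaining cell types. The methods of the study describe 1 pool of 2 mice behind every array and a purification of its own for each replicate. No treatment was given to either group.

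The labels were checked first. Ifitm3 read 4.61 and 4.36 log2 units on the IfitmF-/- arrays, against 9.26 and 8.91 on the WT arrays, so the deleted gene was low in the samples labelled as lacking it. The 7 measured CD4 T cell markers of 8 listed lay between 10.02 and 12.29 on all 4 arrays, with 2 called higher and 1 lower. Xist, which is made in female cells, read 4.86 and 4.43 in IfitmF-/- cells and 11.32 and 11.25 in WT cells, while the Y-linked Uty read 9.01 and 8.83 in IfitmF-/- cells and 3.97 and 4.09 in WT cells. Sex and genotype therefore cannot be told apart on these arrays, in any comparison that follows. Arrays of the same genotype correlated at 0.991 and 0.993, and arrays of different genotypes at 0.976 to 0.979.

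Of the 73 members, 15 differed between the genotypes, 10 higher and 5 lower in IfitmF-/- cells (limma, adjusted p under 0.05 over all 34760 probe sets). The 15 calls were 20.5% of the members, against 8.57% of all genes (higher 4.96%, lower 3.61%) and 8.43% of all probe sets. Bright probe sets were called more often than dim ones, and 66 of the 73 members had a mean at or above the median probe set, at a log2 value of 6.26. Among genes at or above that level, 22.7% of the members (15 of 66) and 15.2% of all genes were called. Of all these genes, 8.72% were called higher and 6.52% lower. The called members lay well above that level. The share called among genes as bright as them was not computed, here or for the groups of members below. Changes are IfitmF-/- minus WT on the log2 scale throughout, and the standard errors of the called members were 0.08 to 0.13. The median change was 0.07 over the members and -0.02 over all genes, with 44 members positive and 29 negative. The IfitmF-/- arrays lay wholly above or below the WT arrays for 53 members (72.6%), against 58.7% of all genes. At or above the level of 6.26 these shares were 78.8% of the members (52 of 66) and 71.3% of all genes, so most bright genes had arrays that did not overlap. With 2 arrays per genotype the calls rest on all 4. Leaving out any 1 array left 0 members called, and 0 of all probe sets, while all 15 kept their direction and 20 to 26 members had an unadjusted p under 0.05, against 30 with all arrays.

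**Figure D1:**
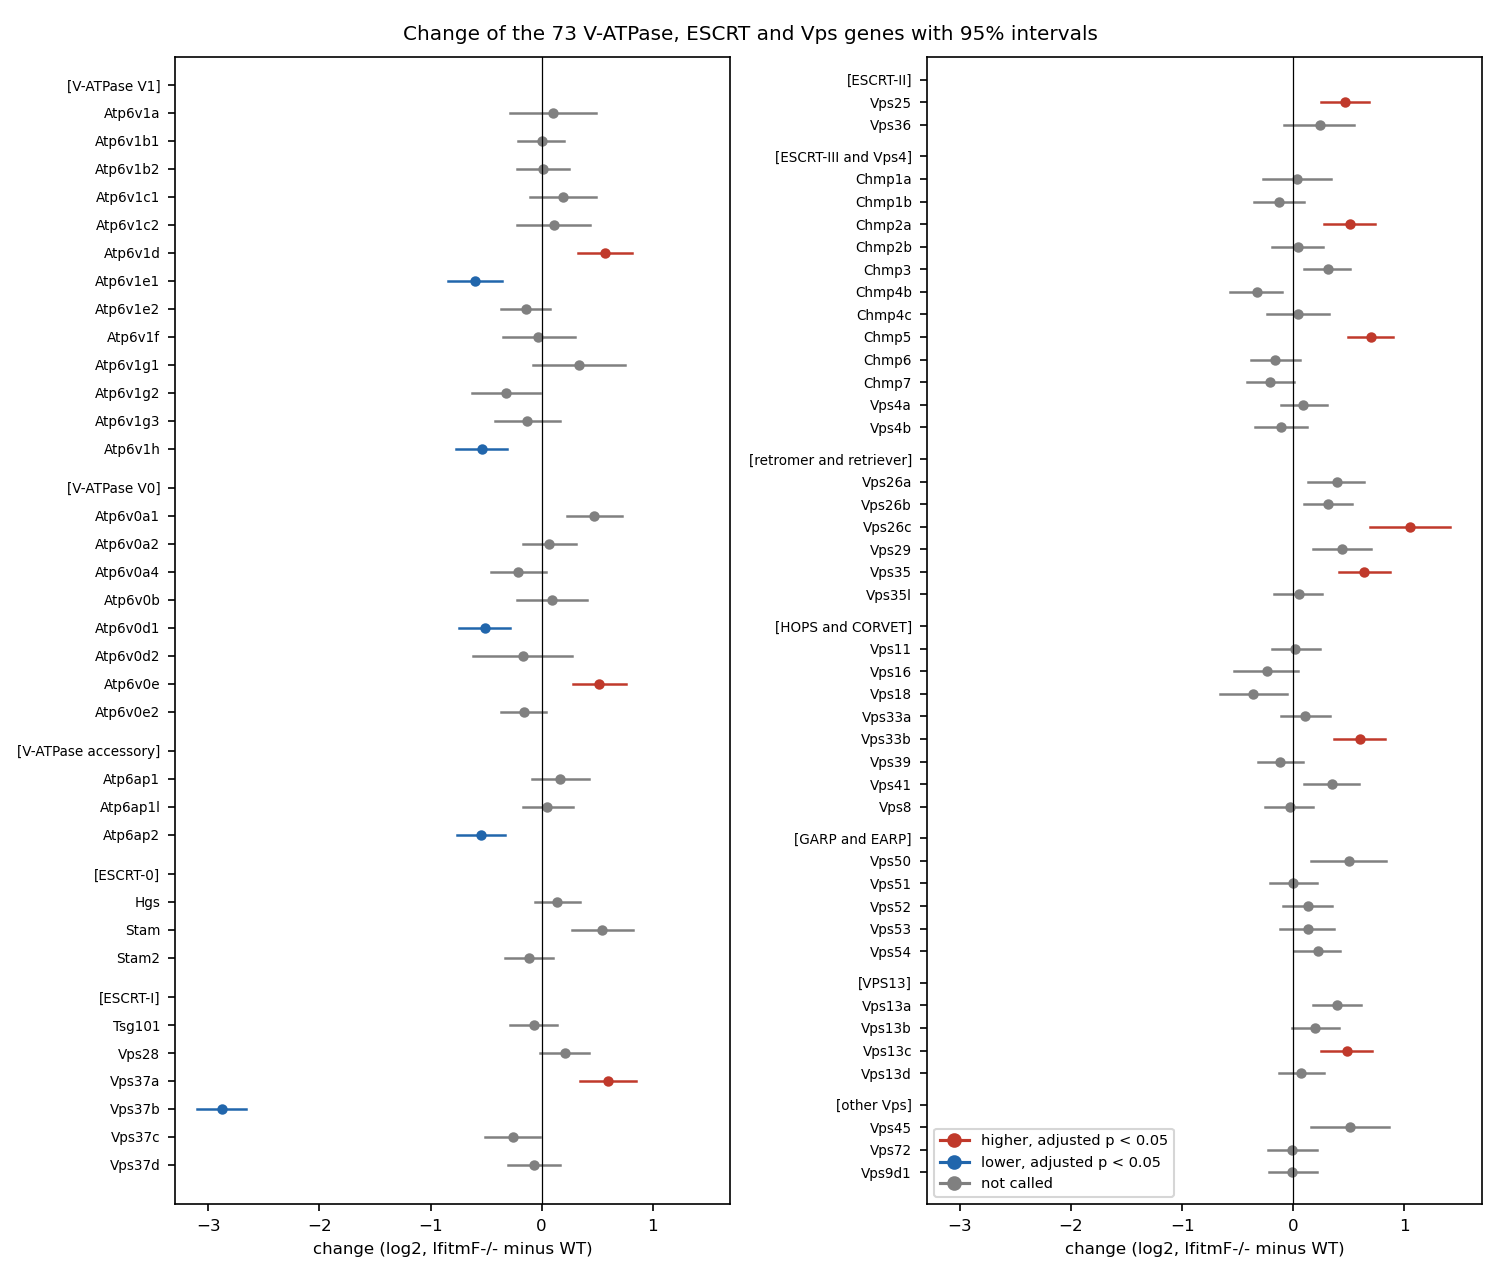
Change of each of the 73 members (x axis, log2 units, IfitmF-/- minus WT) with its 95% interval, grouped by role. Red marks the 10 members called higher, blue the 5 called lower and grey the 58 not called. Vps37b stands alone at -2.88, and the retromer and retriever genes all lie to the right of 0.

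Other signals moved with genotype beside these genes. The summed linear intensity of 3 measured erythroid markers was 5645 and 5110 in IfitmF-/- cells and 2525 and 3495 in WT cells, and that of 4 platelet markers was 4556 and 10367 in IfitmF-/- cells and 3563 and 2320 in WT cells. Both sums were thus higher in IfitmF-/- cells on both arrays, though 0 markers of either list passed the test and only 2 of the 3 erythroid and 2 of the 4 platelet markers were higher without overlap. All 4 plasma cell markers were lower without overlap, with 0 called. Their sums were 1863 and 1710 in IfitmF-/- cells and 3654 and 2443 in WT cells. Lack of overlap in either direction was common, at 58.7% of all genes. Among genes with a mean at or above the median probe set it was 71.3%. Counts of markers without overlap in these lists therefore say little by themselves. The 4 NK markers were split. Klrd1, Ncr1 and Klrb1c were higher in IfitmF-/- cells without overlap, with changes of 1.11, 0.75 and 0.58 that did not pass the test, while Nkg7, which other cytotoxic cells also make, was called lower (change -0.89, adjusted p = 0.0321). Their summed intensity, 1714 and 1654 in IfitmF-/- cells and 2193 and 1771 in WT cells, followed Nkg7, while their mean log2 value was 8.53 and 8.36 in IfitmF-/- cells and 8.27 and 7.85 in WT cells. Of 5 neutrophil markers, 4 were higher without overlap, of which Retnlg was called (change 1.83, adjusted p = 0.0136), and the mean log2 value of the list was 5.89 and 6.07 in IfitmF-/- cells and 5.44 and 5.74 in WT cells. Its summed intensity, 343 and 439 in IfitmF-/- cells and 252 and 456 in WT cells, overlapped, as did Mpo, at 6.65 and 7.46 in IfitmF-/- cells and 6.81 and 8.30 in WT cells. B cell, myeloid and CD8 T cell sums overlapped between the genotypes, with 0 markers called. Without overlap, 1 of 5 myeloid markers was higher (Lyz2, change 1.34) and 1 of 2 CD8 T cell markers was lower (Cd8a, change -0.55). Each of these lists had some signal on every array and the arrays hold no true zero. The part of these cells in the results was not tested, and in RNA of a whole preparation fewer cells of a type and less RNA per cell cannot be told apart.

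The V-ATPase genes did not move one way. Of 24 members, 2 were called higher and 4 lower, and the median change was 0.01. Their share called was 25%, against 8.57% of all genes and 15.2% of those at or above the level of 6.26. The called genes encode subunits that are built into the same pump in fixed numbers.

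In the V1 sector, Atp6v1d encodes subunit D of the central rotor. It read 10.73 and 10.87 in IfitmF-/- cells, against 10.23 and 10.22 in WT cells, a change of 0.57 or 1.49-fold (adjusted p = 0.0376). Atp6v1e1 encodes subunit E1 of the outer stalk that holds the motor still, and it went in the opposite direction. Its values were 9.03 and 9.13 in IfitmF-/- cells and 9.64 and 9.72 in WT cells, a change of -0.60 (adjusted p = 0.0346). Atp6v1h, which encodes the regulatory subunit H that couples the sectors, was also lower, at 8.36 and 8.28 in IfitmF-/- cells and 8.90 and 8.82 in WT cells (change -0.54, adjusted p = 0.0388). The arrays of the genotypes did not overlap for any of the 3 genes. The other 10 V1 genes were not called, with changes between -0.32 for Atp6v1g2 and 0.34 for Atp6v1g1. The genes of the catalytic ring, Atp6v1a and Atp6v1b2, changed by 0.10 and 0.01, with 95% intervals of -0.28 to 0.49 and -0.22 to 0.25.

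In the V0 sector, Atp6v0e, which encodes a small membrane subunit, read 10.97 and 11.04 in IfitmF-/- cells and 10.54 and 10.42 in WT cells, a change of 0.52 (adjusted p = 0.0436). Atp6v0d1, whose product joins the rotor to the proton-carrying ring, read 8.84 and 8.94 in IfitmF-/- cells and 9.42 and 9.37 in WT cells, a change of -0.51 (adjusted p = 0.0429). The call on Atp6v0d1 was lost when arrays were centred on their medians (adjusted p = 0.0548). Atp6v0a1, for an isoform of the large membrane subunit, narrowly missed the threshold at 8.23 and 8.36 in IfitmF-/- cells and 7.84 and 7.79 in WT cells (change 0.47, adjusted p = 0.0528). The ring gene Atp6v0c had no probe set of its own and was not analysed here.

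Among the accessory genes, Atp6ap2 encodes the (pro)renin receptor, which is needed to assemble the pump. It read 8.51 and 8.57 in IfitmF-/- cells and 9.08 and 9.10 in WT cells, a change of -0.55 (adjusted p = 0.0331). Atp6ap1, for the other large accessory protein, read 10.31 and 10.47 in IfitmF-/- cells and 10.26 and 10.17 in WT cells (change 0.17, adjusted p = 0.353). Both genes are on the X chromosome, where the sexes differ in gene dose, and 5.95% of X-linked genes (44 of 739) were called.

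Several V-ATPase isoforms are known from particular tissues. Atp6v1b1, Atp6v0a4 and Atp6v1g3 serve acid-secreting cells of the kidney, and Atp6v0d2 serves osteoclasts. These 4 genes read between 5.0 and 5.95 on all 4 arrays, below the median probe set, and none was called. Of the 4 osteoclast markers, Acp5 was bright, at 10.71 and 10.82 in IfitmF-/- cells and 10.60 and 10.35 in WT cells. The others, Ctsk, Calcr and Ocstamp, read 4.47 to 6.11. The 3 markers listed for acid-secreting kidney and epididymal cells lay between 4.48 and 5.46, and 0 of these 3 and 0 of 4 osteoclast markers were called. As a gauge of such low values, the 5 deleted Ifitm genes read 4.36 to 6.47 on the IfitmF-/- arrays. In all, 7 members were this dim, and 0 of them were called.

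Promoters of V-ATPase genes are known to carry the E-box CACGTG, the core of the element through which the transcription factor TFEB drives lysosomal genes. RefSeq promoters (GRCm38.p6, 250 bases before to 50 after the start) were matched for 49 of the 73 members and 9 of the 15 called ones. CACGTG, which reads the same on both strands, was found in 4 of 17 V-ATPase promoters (23.5%) and in 8 of 49 member promoters (16.3%), against 8.09% of all 27025 genes with a promoter. The windows of 30 bases around it are shown because called genes of both directions carry it, with the E-box in capitals and each read 5′ to 3′ on the gene's strand.
Atp6v0e, higher in IfitmF-/- cells, chr17:26676387-26676416, plus strand: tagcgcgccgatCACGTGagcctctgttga
Atp6v0d1, lower in IfitmF-/- cells, chr8:105566050-105566079, minus strand: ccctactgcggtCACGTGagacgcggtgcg
Atp6v1a, not called, chr16:44139373-44139402, minus strand: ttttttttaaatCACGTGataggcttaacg
Atp6v0b, not called, chr4:117887330-117887359, minus strand: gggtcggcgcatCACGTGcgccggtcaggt
The E-box started 4 bases after the listed start in Atp6v0e and 3 before it in Atp6v0d1, so both lay within a few bases of the start. Atp6v0b held another one 18 bases further upstream. Its values were 8.81 and 9.02 in IfitmF-/- cells and 8.91 and 8.74 in WT cells, which overlapped. Searched on both strands, TGACGT, most of the cyclic AMP response element, stood in 14.3% of member promoters and 8.37% of all, and the AP-1 motif TGANTCA in 6.12% of member promoters and 8.97% of all. A match is a string of letters in a window and was not tested for binding.

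The ESCRT genes held the largest change of all members. Vps37b encodes one of the interchangeable Vps37 subunits that complete ESCRT-I around Tsg101. It read 9.24 and 9.30 in IfitmF-/- cells, against 12.12 and 12.18 in WT cells, a change of -2.88 (95% interval -3.10 to -2.66) or 7.36-fold (adjusted p = 0.00778). The gap between genotypes was far wider than that between replicates, and leaving out each array gave changes of -2.91 to -2.85, although the adjusted p was then 0.0681 to 0.114. Genes of the immediate early response follow recent stimulation of a cell, and 7 of 13 listed were called lower as well. Of all genes 3.61% were called lower, and 6.52% of those with a mean at or above the median probe set. Fos, Jun, Junb, Egr1, Egr2 and Dusp1 were not called, with changes of -0.43 to -0.04. The mean log2 value of the list was 8.74 and 8.73 in IfitmF-/- cells and 10.06 and 9.86 in WT cells. Whether Vps37b moved with the immediate early genes was not tested.

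No paralog of Vps37b was called lower. Vps37a was higher, at 9.18 and 9.29 in IfitmF-/- cells and 8.69 and 8.57 in WT cells (change 0.60, adjusted p = 0.0375). Vps37c changed by -0.26 (adjusted p = 0.178) and Vps37d by -0.07 (adjusted p = 0.692). The partners they share in the complex were not called either. Tsg101, which recognises ubiquitinated cargo, read 9.12 and 9.18 in IfitmF-/- cells and 9.22 and 9.23 in WT cells (change -0.07, 95% interval -0.28 to 0.14). Vps28, which links ESCRT-I to ESCRT-II, read 10.90 and 10.98 in IfitmF-/- cells and 10.75 and 10.71 in WT cells (change 0.21, adjusted p = 0.198).

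**Figure D2:**
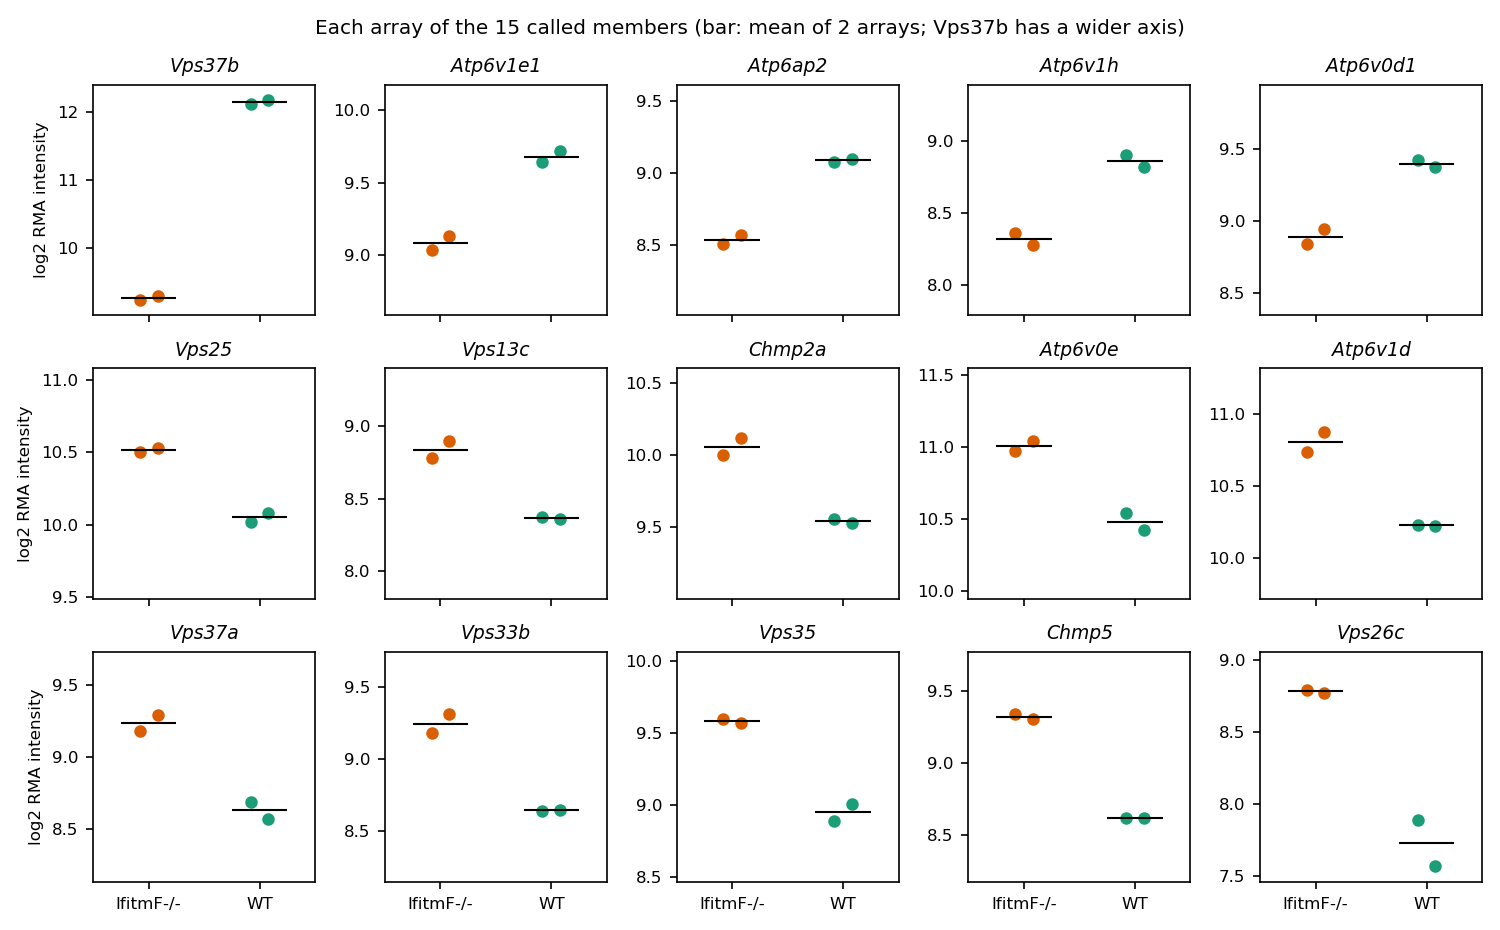
Log2 RMA intensity (y axis) of the 15 called members on each array, IfitmF-/- left and WT right, with a bar at the mean of 2 arrays. Each panel spans the same range except that of Vps37b, whose axis is wider, and the genotypes overlap in none of the panels.

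Along the rest of the ESCRT pathway, 3 genes were called and all 3 were higher. Vps25, of ESCRT-II, which passes cargo from ESCRT-I to ESCRT-III, read 10.50 and 10.53 in IfitmF-/- cells and 10.02 and 10.08 in WT cells (change 0.47, adjusted p = 0.0435). Chmp5 encodes an ESCRT-III protein that binds the Vps4 cofactor Vta1. It read 9.34 and 9.30 in IfitmF-/- cells, against 8.62 on both WT arrays, a change of 0.70 or 1.62-fold (adjusted p = 0.0214). Chmp2a encodes the ESCRT-III subunit that recruits Vps4 to pinch off the vesicle. It averaged 10.06 ± 0.08 in IfitmF-/- cells and 9.55 ± 0.02 in WT cells (SD, n = 2 each), and both IfitmF-/- arrays lay above both WT arrays (change 0.51, adjusted p = 0.0429).

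ESCRT-0, which first gathers ubiquitinated receptors, had no called gene. Stam lay just outside the threshold at 7.98 and 8.18 in IfitmF-/- cells and 7.53 and 7.55 in WT cells (change 0.54, adjusted p = 0.0522), and it was called in 6 of the alternatives tried. Its paralog Stam2 changed by -0.11 (adjusted p = 0.431) and their partner Hgs by 0.14 (adjusted p = 0.323). In ESCRT-III, Chmp3, which polymerises together with Chmp2a, changed by 0.31 (adjusted p = 0.0905). Chmp4b, which encodes the main filament subunit, was 10.72 and 10.60 in IfitmF-/- cells and 11.02 and 10.98 in WT cells (change -0.33, adjusted p = 0.10). The ATPase genes that take the filament apart, Vps4a and Vps4b, changed by 0.09 and -0.11. Over all 23 ESCRT members 4 were called higher and 1 lower (21.7%), with a median change of 0.04. Of all genes 8.57% were called, and 15.2% of those at or above the level of 6.26.

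Retromer and retriever retrieve cargo from the endosome before it reaches the lysosome. All 6 of their genes had a positive change, 2 passed the test, and the median change was 0.41. The 2 calls were 33.3% of this small group, against 15.2% of all genes at or above the level of 6.26. Vps26c, the Vps26-like subunit of retriever, showed the largest rise of all members. It read 8.79 and 8.77 in IfitmF-/- cells, against 7.89 and 7.57 in WT cells, a change of 1.05 (95% interval 0.69 to 1.41) or 2.07-fold (adjusted p = 0.0266). The WT arrays differed from each other by more than the IfitmF-/- arrays did, and leaving out each array gave changes of 0.89 to 1.21. Vps35 encodes the scaffold of retromer on which the other subunits sit. It read 9.60 and 9.57 in IfitmF-/- cells and 8.89 and 9.01 in WT cells, a change of 0.64 or 1.56-fold (adjusted p = 0.0299).

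The other retromer genes missed the threshold. Their arrays did not overlap between the genotypes, which was also the case for 71.3% of all genes at or above the level of 6.26. The share among genes as bright as these was not computed. Vps29, which is shared by retromer and retriever, read 9.27 and 9.41 in IfitmF-/- cells and 8.96 and 8.84 in WT cells (change 0.44, adjusted p = 0.0733). Vps26a and Vps26b, alternative arms of retromer, changed by 0.39 (adjusted p = 0.0882) and 0.31 (adjusted p = 0.0962). Vps35l, the scaffold of retriever, read 8.85 and 8.90 in IfitmF-/- cells and 8.86 and 8.80 in WT cells, which overlapped (change 0.05, 95% interval -0.17 to 0.26). The called genes thus were 1 subunit of each complex.

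**Figure D3:**
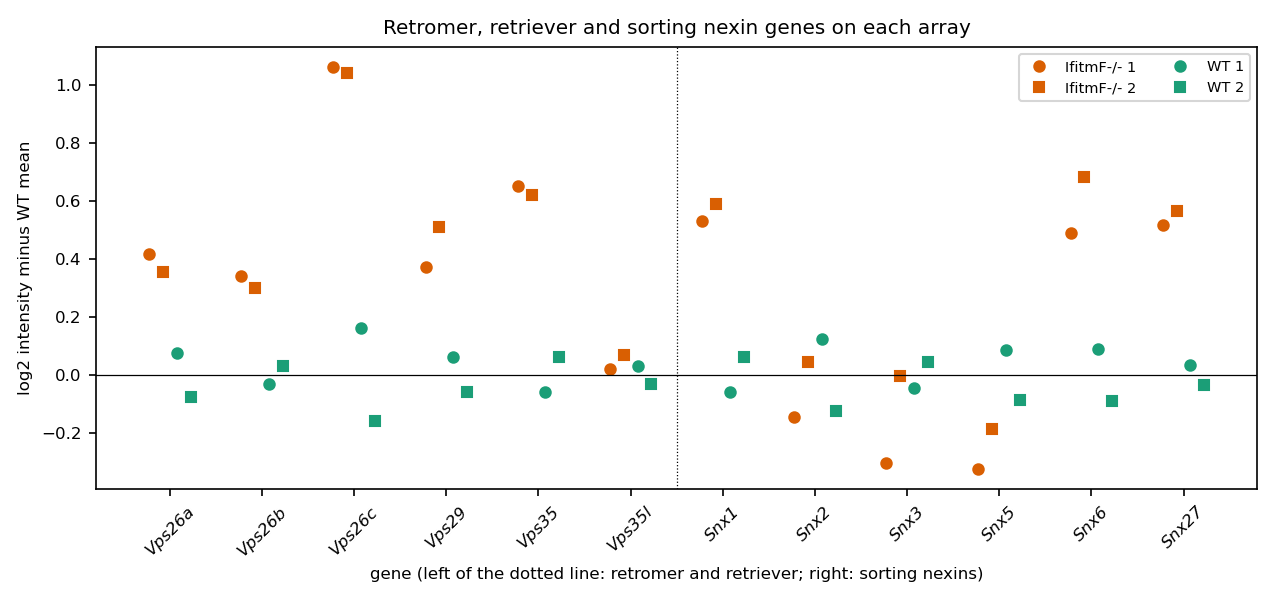
Log2 intensity minus the WT mean (y axis) for 6 retromer and retriever genes, left of the dotted line, and 6 sorting nexin genes, right of it. Symbols are single arrays, orange for IfitmF-/- and green for WT. Both IfitmF-/- arrays lie above both WT arrays for Vps26a, Vps26b, Vps26c, Vps29 and Vps35 and for Snx1, Snx6 and Snx27. For Snx5 both lie below both WT arrays.

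Tethers and lipid transfer proteins act where endosomes meet other membranes. Vps33b, a Sec1/Munc18-family protein that guides SNARE pairing, read 9.18 and 9.31 in IfitmF-/- cells and 8.64 and 8.65 in WT cells, a change of 0.60 or 1.52-fold (adjusted p = 0.0328). It was the 1 gene called of 8 listed under HOPS and CORVET, and whether its product belongs to either complex was not tested. Its paralog Vps33a changed by 0.11 (adjusted p = 0.458). The other 6 lay between -0.36 for Vps18 and 0.35 for Vps41, and none of them was called. Vps39, a HOPS subunit, changed by -0.12 (adjusted p = 0.419). Vps13c encodes a bridge along which lipids pass to late endosomes and lysosomes. It read 8.78 and 8.90 in IfitmF-/- cells and 8.37 and 8.36 in WT cells (change 0.48, adjusted p = 0.0481), nearest to the threshold of the 15 calls. All 4 Vps13 genes had positive changes, from 0.07 for Vps13d to 0.48, and Vps13a missed the threshold with 0.39 (adjusted p = 0.0623).

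In the GARP and EARP tethers, which receive vesicles at the Golgi and at recycling endosomes, 0 of 5 genes were called. Vps50, the subunit particular to EARP, changed most, at 7.33 and 7.62 in IfitmF-/- cells and 6.93 and 7.02 in WT cells (change 0.50, adjusted p = 0.0922), while Vps51, shared by both tethers, read between 8.05 and 8.09 on all arrays. Among the remaining Vps genes, Vps45, a Sec1/Munc18 protein of early endosomes, changed by 0.51 (adjusted p = 0.0985). Vps72 is named after a yeast sorting mutant but encodes a chromatin protein, and it changed by -0.01 (adjusted p = 0.96). Outside the V-ATPase and ESCRT, 4 of 26 members were called, all higher, and the median change was 0.16. All 26 lay above the level of 6.26, and their share called, 15.4%, was close to the 15.2% of all genes at that level.

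**Figure D4:**
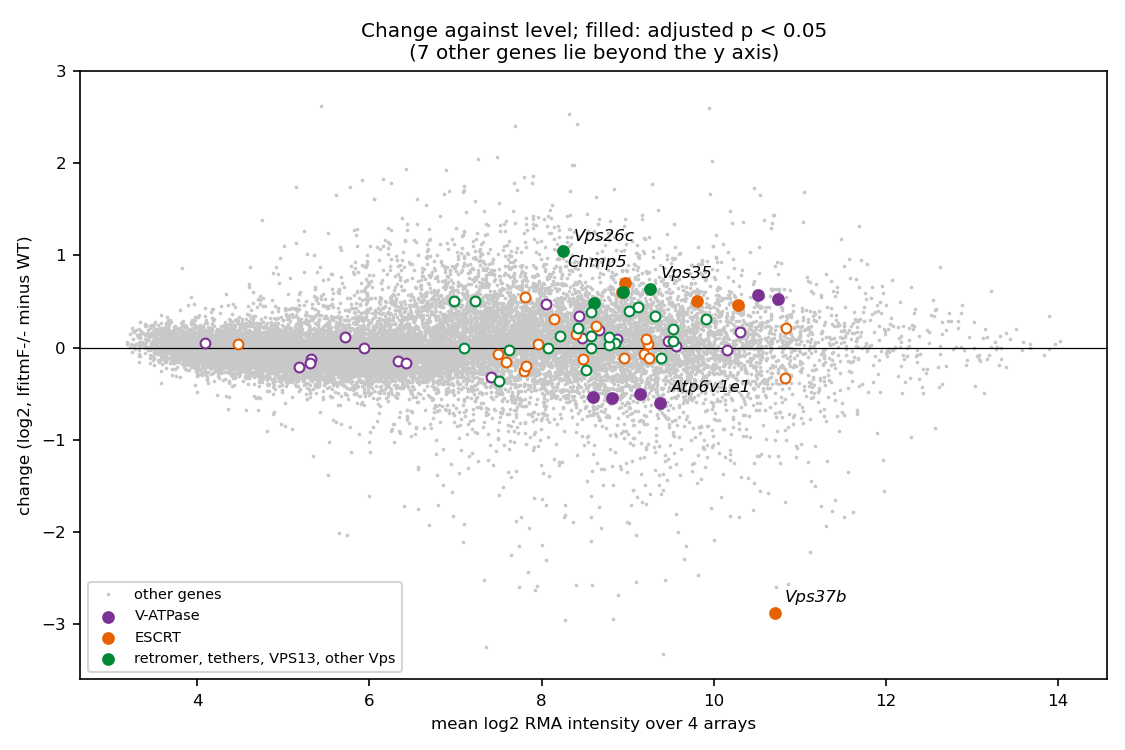
Change (y axis, log2 units, IfitmF-/- minus WT) against mean log2 RMA intensity over 4 arrays (x axis) for all genes in grey and the members in colour, filled where called. All 15 called members have means above 8, and 7 other genes lie beyond the y axis.

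Genes of the same compartments that the symbol rule leaves out were described from a list by role. Of 58 measured partner genes, of 60 listed, 5 were called higher and 3 lower (13.8%, against 8.57% of all genes). At or above the level of 6.26 the partner genes were called about as often as other genes of that level, with 14.3% (8 of 56) against 15.2%. Paralogs of the early endosome GTPase Rab5 were called in opposite directions. Rab5b read 9.21 and 9.25 in IfitmF-/- cells and 8.34 and 8.01 in WT cells (change 1.05, adjusted p = 0.0273), and Rab5a read 9.34 and 9.11 in IfitmF-/- cells and 10.04 and 10.11 in WT cells (change -0.85, adjusted p = 0.0286). Rab5c, the third paralog, changed by 0.22 (adjusted p = 0.212). Rbsn, whose product is a Rab5 effector for recycling, was lower too, at 7.63 and 7.70 in IfitmF-/- cells and 8.42 and 8.38 in WT cells (change -0.74, adjusted p = 0.0212).

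Partners of ESCRT were also called in both directions, while those of retromer were called only higher. Ptpn23, an ESCRT adaptor, read 7.60 and 7.49 in IfitmF-/- cells and 8.31 and 8.34 in WT cells (change -0.78, adjusted p = 0.0213). Stambpl1, a deubiquitinase related to one that acts on ESCRT cargo, changed by 0.70 (adjusted p = 0.0262), and Stambp, that relative, by 0.07 (adjusted p = 0.665). The sorting nexins Snx1 and Snx27, which work with retromer on tubules and in cargo choice, changed by 0.56 (adjusted p = 0.0389) and 0.54 (adjusted p = 0.0356), and Snx6 by 0.59 without passing the test (adjusted p = 0.0594). Snx5 went the other way without overlap (change -0.25, adjusted p = 0.23). The 12 retromer partners split into 6 positive and 6 negative changes. Of the V-ATPase partners 1 of 11 was called, Ncoa7, whose product binds the pump (change 0.60, adjusted p = 0.0298).

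The lysosome genes examined beside them were not called, 0 of 8, with changes of -0.15 to 0.24 and 0 at an unadjusted p under 0.05. Lamp1, a main lysosomal membrane protein, read 10.52 and 10.91 in IfitmF-/- cells and 10.74 and 10.53 in WT cells. Its arrays overlapped, as did those of Lamp2 and Ctsd, and in each the second IfitmF-/- array was highest. That array was also highest for Mitf, but not for Tfeb, Tfe3 or Mcoln1, and Lamtor1 read 8.16 both there and on the second WT array. The second IfitmF-/- array also had the highest summed level of 5 myeloid markers. These sums were 2486 and 4954 in IfitmF-/- cells and 4060 and 2344 in WT cells. The same held for 4 platelet markers, with sums of 4556 and 10367 in IfitmF-/- cells and 3563 and 2320 in WT cells. The part of either cell type in the lysosome values was not tested.

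The members were also read by place in the genome, since Ifitm genes lie together on chromosome 7. The called genes Vps33b and Chmp2a are on chromosome 7, but 1504 and 3559 genes of the gene table lay between them and the nearest Ifitm gene. The other 13 called genes were spread over chromosomes 1, 4, 5, 6, 8, 9, 11, 12, 16, 17 and X, with 3 of them, Vps35, Vps37a and Atp6v0d1, on chromosome 8. Vps35 and Vps37a were higher and Atp6v0d1 was lower.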

How the data were processed

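The authors deposited RMA intensities on the linear scale, that is background-corrected, quantile-normalized and summarised by probe set. The submitters' processing notes name RMA and affy, with no versions. This normalization removes a shift that all genes share. Array medians were 75.9 and 74.8 units in IfitmF-/- cells and 77.1 and 78.1 in WT cells. Log2 values were fitted by lmFit and eBayes of limma 3.58.1, run in R 4.3.3 (no covariate, Benjamini-Hochberg over 34760 probe sets, call at adjusted p under 0.05), after the empirical-Bayes test of the study's methods. The fit had 2 residual and 2.39 prior degrees of freedom, and the number of arrays limits the precision. Of the probe sets, 21640 were annotated to a single gene. Current symbols and chromosomes were looked up by gene ID in a GRCm38.p6 table.

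Members, roles, partner and marker lists were chosen with earlier results of these data known. The genes named are the called members and, per role, the member of highest mean and of largest change. Others were named after their values were seen. The fit was tested on simulated data. Tried as alternatives were leaving out each array, a block for the replicate number, median centring, a second quantile normalization, eBayes with a trend or robust, filters on dim and on shared probe sets, gene means, platform symbols, the methods' t-test and their filter of fold and range.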

Additional observations from a re-analysis of the deposited data

How the results depend on the processing

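All 15 called members kept their direction under every alternative tried and had an unadjusted p under 0.05 in each fit. Their calls depended on the spread estimate. The calls among all probe sets, members and partner genes, higher and lower alike, were lost whichever array was left out. Such fits had 1 residual degree of freedom, and the lone array was assumed to vary like the other group. Why the calls were lost was not tested. With the replicate number as a block there were likewise 0 calls among all probe sets (2930 without it, 1557 higher and 1373 lower), 0 among members, with adjusted p of 0.0624 to 0.118 for the 15, and 0 among partner genes. Deviations of same-numbered arrays from their group means correlated at -0.124. With 2 arrays per genotype this value cannot tell whether such arrays shared more than a number. A crossed pairing, added after seeing the data, called 975 probe sets (468 higher, 507 lower) and 1 member (0 higher, 1 lower). The methods' t-test called 32 members at an unadjusted p under 0.05 (23 higher, 9 lower) and 0 after Benjamini-Hochberg adjustment. Applied here, the methods' filter of fold and range kept 2 members, 1 higher (Vps26c) and 1 lower (Vps37b). The study's supplement also lists Chmp5, Vps25 and Vps35 among its differing genes. Here they were 1.62, 1.38 and 1.56-fold higher, below the fold of 2 that the methods state, and the reason was not tested. Without dim probe sets, which left fewer tests, 21 members were called, 16 higher, among them the 15, and 13 partner genes, 8 higher and 5 lower. With probe sets of 1 gene alone, 13 partner genes were again called, 8 higher and 5 lower. Median centring lost Atp6v0d1 (adjusted p = 0.0548). The change of Vps72, near 0 throughout, turned to 0.03 with median centring and ranged over -0.05 to 0.03 when an array was left out, being positive without WT replicate 1, and the cause was not tested. The median change over the members stayed between 0.05 and 0.11. No other alternative moved a count by over 1.5 times. For Atp6v0a2 and Vps4b a second, dimmer probe set had the opposite sign to the first, at -0.14 and 0.02, and none of these was called.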
